A study of Rattus norvegicus with 6 samples.

Results

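The protocadherins were taken as all rows of the count table whose gene symbol begins with Pcdh. They were 41 of 26405 genes. Of these, 33 belong to the gene clusters on chromosome 18 (3 alpha, 18 beta and 12 gamma genes), and 8 are non-clustered genes. Counts, sums, shares and rankings are over these 41 rows unless said otherwise, and 11 further rows that are protocadherins by description alone are given separately. RNA came from 6 primary cultures of rat hippocampal neurons. All are labelled wild type (WT). In 3 cultures a lentivirus carried an empty shRNA vector (control), and in the other 3 it carried an shRNA against S-SCAM/MAGI2, a synaptic scaffolding protein (knockdown). All were transduced at DIV2 (day in vitro 2) and yielded RNA at DIV9. The cultures were prepared from embryonic rats and are not purified neurons, and the knockdown was made with 1 shRNA sequence. The comparison asks whether protocadherin RNAs differed between knockdown and control cultures, and whether clustered and non-clustered genes differed in this.

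Protocadherins are adhesion proteins of the cadherin superfamily that bind the same protein on a facing membrane. In the alpha and gamma clusters, each variable exon has its own promoter and encodes the extracellular and membrane-spanning part of 1 isoform, and it is spliced to constant exons that encode a shared cytoplasmic tail. Beta genes have no such constant exons. Single neurons use different sets of these promoters, a choice that involves the DNA-binding protein CTCF and cohesin, and the resulting mixture of isoforms serves self-recognition of neurites. Non-clustered protocadherins have promoters and cytoplasmic tails of their own and include the delta-protocadherins, which act in axon growth, cell sorting and synapse formation.

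The promoter of a clustered gene carries its isoform choice, so the letters shared by these promoters are shown first. RefSeq windows of the GRCr8 build, each of 300 bases that end shortly after a gene's start, were matched to 32 of the 41 genes (14 beta, 11 gamma and 7 non-clustered, and none of the 3 alpha genes). One of them, Pcdhb15, was matched by symbol alone. Of all runs of 10 letters, GGTGGCGCTG was in more windows of clustered genes than any other (12 of 25), and it was picked from these windows. On either strand, it was in 12 of 14 beta windows, in 0 of 11 gamma and 0 of 7 non-clustered windows, and in 66 of all 27457 RefSeq windows (0.24%). It holds CGCT, the core letters by which the conserved element of clustered protocadherin promoters is known. CGCT alone was in 92.9% of beta windows, 81.8% of gamma windows and 62.4% of all windows. The following 6 of the 12 stretches are shown to let the flanking letters be compared. They are all on the plus strand in GRCr8, they are in order of their genes' level per kilobase in these cultures, from the highest to the lowest of the 12, and capitals mark the 10 letters:
Pcdhb5 (chr18:29302394-29302443): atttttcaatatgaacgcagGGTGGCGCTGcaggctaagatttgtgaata
Pcdhb19 (chr18:29478754-29478803): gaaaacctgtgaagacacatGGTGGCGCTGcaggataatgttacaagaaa
Pcdhb3 (chr18:29285594-29285643): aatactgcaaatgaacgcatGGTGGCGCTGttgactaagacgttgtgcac
Pcdhb8 (chr18:29339248-29339297): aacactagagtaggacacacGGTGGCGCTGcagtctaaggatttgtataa
Pcdhb12 (chr18:29413638-29413687): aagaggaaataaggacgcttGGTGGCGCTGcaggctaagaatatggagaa
Pcdhb21 (chr18:29492139-29492188): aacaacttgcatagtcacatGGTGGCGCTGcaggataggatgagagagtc
In the 12 windows the run began between 52 and 208 bases before the RefSeq start. The beta windows without it were those of Pcdhb1 and Pcdhb15. Pcdhb1, the first beta gene along the chromosome, was the only clustered gene that was not countable, whereas Pcdhb15 was at 6.91 CPM, counts scaled to a common library total (mean of 6 libraries). The absence of these letters says only that they are not in this window.

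Libraries held between 13061705 and 29654651 counts on genes, and protocadherins received between 10376 and 24075 of them. Magi2, the targeted gene, measured 82.8, 74.7 and 95.8 CPM in the controls and 30.4, 21.1 and 40.4 CPM after knockdown, so the libraries matched their labels. Here and below, 3 values of a group stand in the order of replicates 1 to 3. General neuron markers were detected in every library, with a sum of 3371 to 5597 CPM over 7 genes. Astrocyte markers summed to 1933 to 8842 CPM over 6 genes, and the cultures thus held glial RNA as well. The fitted fold change was above 0 for all 9 interferon-induced genes tested and below 0 for all 5 microglia markers tested. Knockdown replicate 2 stood apart on the first principal component of all genes tested (73.7, with the other libraries between -30.4 and 24.2). In bulk RNA, fewer cells of a type and less RNA per cell cannot be told apart. The labels name separate biological replicates, and p-values measure the spread between them.

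A gene was called countable with at least 10 counts in 3 or more libraries. This held for 39 of 41 protocadherins, namely all 3 alpha, 17 of 18 beta, all 12 gamma and 7 of 8 non-clustered genes. The same 39 genes passed the expression filter of edgeR and were tested. Pcdhb1 had 1, 0 and 4 counts in control replicates 1 to 3 and 0 in each knockdown library, where a count of 0 allows a level of up to 0.163, 0.104 and 0.133 CPM. Pcdh12, a protocadherin of endothelial cells, had 9, 7 and 8 counts in control and 8, 14 and 5 counts in knockdown replicates 1 to 3. It lay just outside the threshold. The countable protocadherin nearest the threshold was Pcdhb21, which was well inside it with 33 to 86 counts per library.

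**Figure D1:**
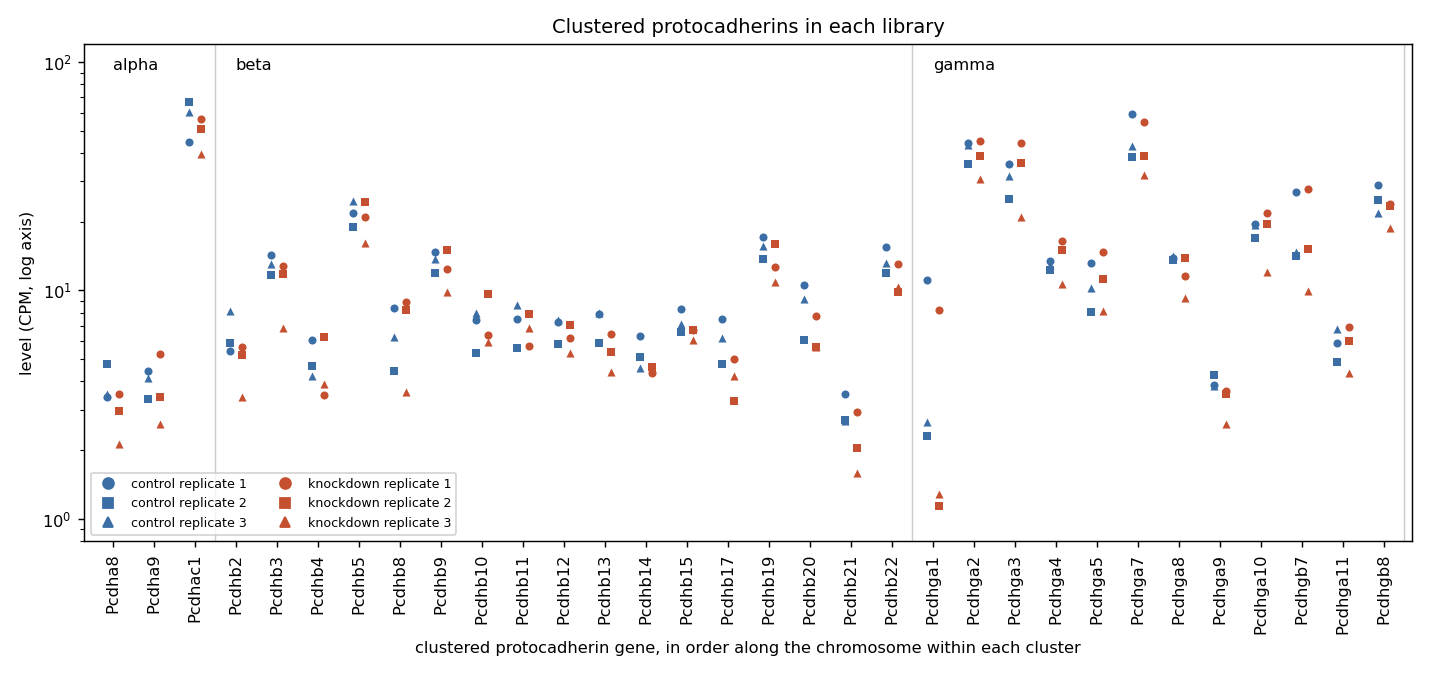
Level of each clustered protocadherin tested (CPM, log axis) in each of the 6 libraries, with genes in order along the chromosome within the alpha, beta and gamma clusters, colours for the groups and symbols for the replicates. The groups overlap for every gene but Pcdhga9, knockdown replicate 3 is the lowest library for 23 of 32 genes, and Pcdhga1 has 2 libraries far above the other 4.

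None of the 39 protocadherins was called different between knockdown and control cultures by edgeR's quasi-likelihood test (adjusted p from 0.482 to 0.989, Benjamini-Hochberg over 13917 genes). The test called 0% of all genes. At an unadjusted p under 0.05 it found 0 of these 39 protocadherins, against 10.8% of all genes tested. Pcdh7, whose row has no symbol and is not among them, had an unadjusted edgeR p of 0.0116 and is given below. DESeq2 called 0 of the 40 protocadherins to which it gave an adjusted p (smallest 0.550), against 1.36% of all genes, and found 0 at an unadjusted p under 0.05, against 8.62%. A missing call does not show equal levels. For 27 of 39 protocadherins, the 95% interval of the fold change lay within a 2-fold change either way, as it did for 51.5% of all genes tested. These were 22 of 32 clustered and 5 of 7 non-clustered genes. Only the interval of Pcdh1 lay within a 1.5-fold change either way. Every knockdown library was below every control library for Pcdh17 and Pcdhga9, which is 2 of 39 protocadherins against 10.2% of all genes. The reverse held for 0 of 39 protocadherins, against 7.42%.

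The fitted log2 fold change (knockdown minus control) was below 0 for 32 of 39 protocadherins, against 52.4% of all genes. For the 32 clustered genes it ran from -0.62 to 0.13 with a median of -0.17, while the median over all genes was -0.02. By cluster, it was below 0 for 3 of 3 alpha genes (median -0.23), 15 of 17 beta genes (median -0.24) and 9 of 12 gamma genes (median -0.09). For the 7 non-clustered genes it ran from -0.41 to 0.08 with a median of -0.22, and 5 of 7 were below 0. The 95% interval of every one of the 39 genes included 0, with standard errors between 0.19 and 0.87. The count below 0 rested in part on 2 libraries. Without knockdown replicate 3 it was 20 of 32 clustered genes (median -0.09), and without control replicate 1 it was 23 of 32 (median -0.08).

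**Figure D2:**
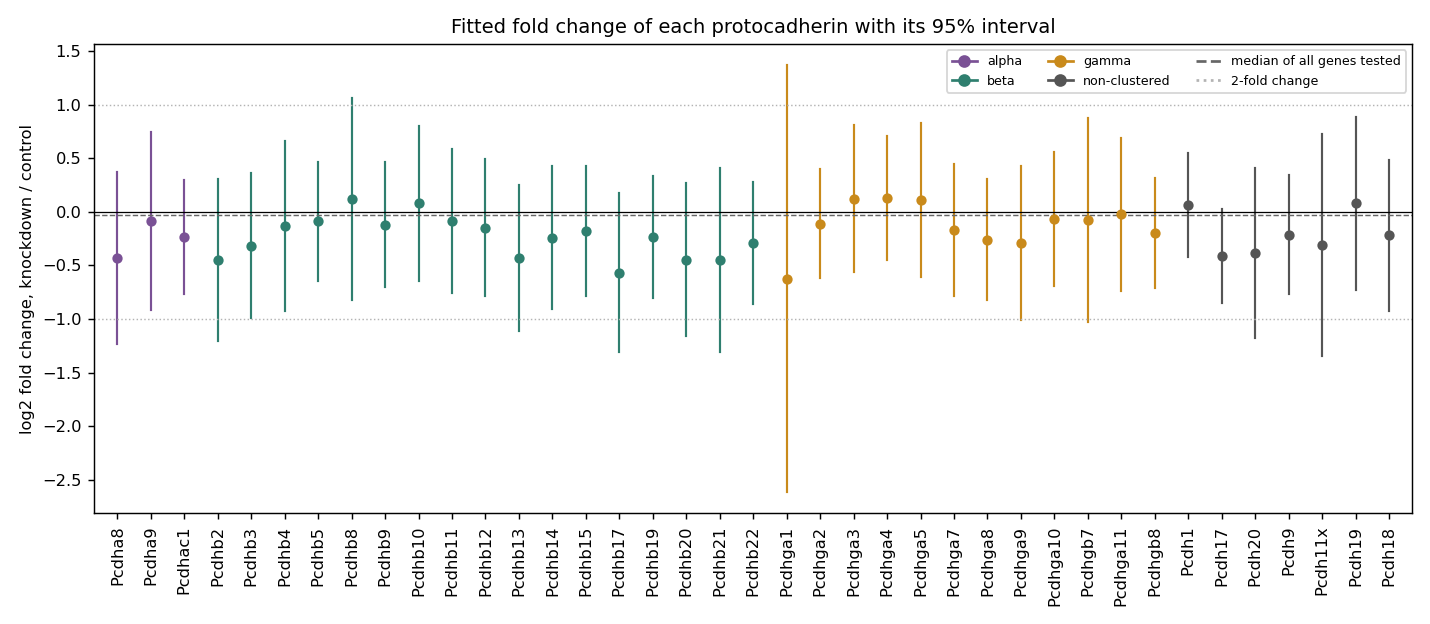
Fitted log2 fold change (knockdown / control) of each of the 39 protocadherins tested, with its 95% interval computed from the edgeR fit, coloured by class. The dashed line is the median of all genes tested (-0.02) and the dotted lines mark a 2-fold change, and 27 of 39 intervals lie between the dotted lines while every interval includes 0.

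Knockdown replicate 3 had the lowest levels of clustered protocadherins. It was the lowest of the 6 libraries for 23 of 32 clustered genes (71.9%), against 15.7% of all genes tested. This was so for 3 of 3 alpha, 10 of 17 beta, 10 of 12 gamma and 3 of 7 non-clustered genes. Relative to the control mean, the median log2 level of clustered genes was 0.14, -0.19 and 0.01 in the controls and -0.07, -0.12 and -0.54 after knockdown. Over all genes the same median lay between -0.05 and -0.02 in every library. Knockdown replicate 3 thus lay below the other 5 libraries, whereas knockdown replicates 1 and 2 lay within the range of the controls. It also had the lowest share of mitochondrial counts (4.94%, against 9.81% in control replicate 2 and 6.60% to 6.79% in the rest). Its sums were the highest for oligodendrocyte-lineage markers (1616 CPM over 8 genes, other libraries 504 to 1466) and for progenitor and cell-division markers (538 CPM over 4 genes, others 254 to 412). The part of these differences in the lower protocadherin levels was not tested.

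**Figure D3:**
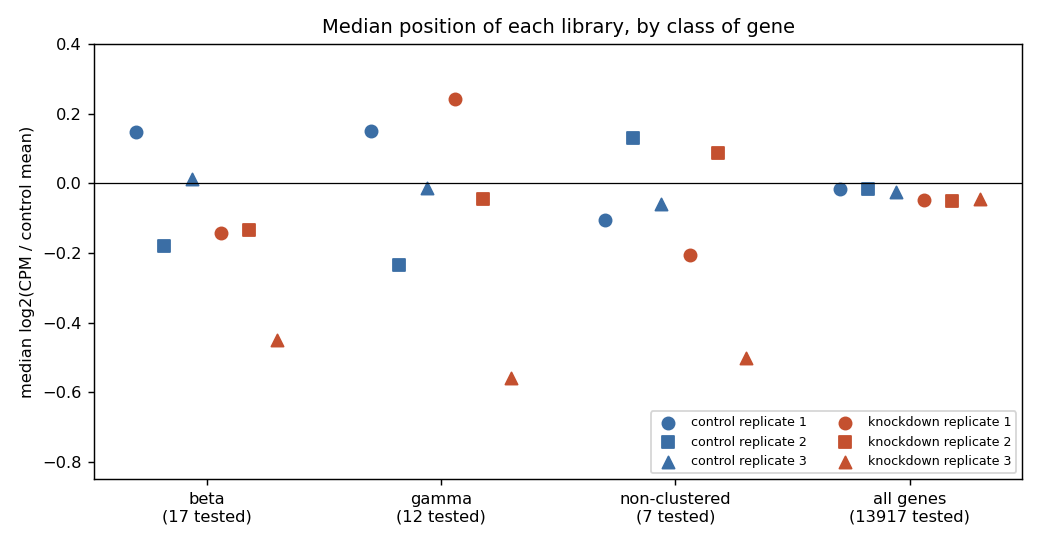
Median log2(CPM / control mean) over the genes tested in each class, one point per library, with colours for the groups and symbols for the replicates. Knockdown replicate 3 lies at -0.45 for beta, -0.56 for gamma and -0.50 for non-clustered protocadherins and near 0 over all genes, where the 6 libraries lie between -0.05 and -0.02.

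The level of each cluster was also summed over its members with a symbol, without a test. The 12 gamma genes summed to 275.6, 201 and 225 CPM in the controls and to 279, 222 and 161 CPM after knockdown. The 18 beta genes summed to 170, 131 and 161 CPM in the controls and to 141, 149 and 110 CPM after knockdown. The 3 alpha genes summed to 52.7, 75.1 and 68.3 CPM in the controls and to 65.3, 57.1 and 44.3 CPM after knockdown. In all 3 of these sums the groups overlapped, with the lowest value in knockdown replicate 3. The sum over all clustered genes with a symbol averaged 453 ± 45.5 CPM in the controls (SD, n = 3 each). After knockdown it averaged 409 ± 87.1 CPM, a log2 ratio of -0.15. These sums leave out the alpha and gamma rows named by description alone, so the ratio does not describe whole clusters. The gamma-A12 row averaged 241 CPM in the controls and 272 CPM after knockdown. It spans 52514 bases, from position 30608069 to 30660582, beyond the 12 gamma rows. Whether it holds the constant exons that gamma isoforms share is not given. Its level therefore cannot be read as that of 1 isoform. The summed 12 gamma genes averaged 234 CPM in the controls and 221 CPM after knockdown. The alpha rows left out had log2 fold changes from -0.40 to 0.02.

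The alpha rows with a symbol were Pcdhac1, Pcdha9 and Pcdha8, while alpha isoforms 1 to 7 are among the rows named by description. Pcdhac1 encodes a C-type isoform, and in mouse neurons C-type isoforms are made constitutively rather than by random choice. It took 85.1% to 89.3% of the counts of these 3 rows, a share that leaves out isoforms 1 to 7. It measured 44.9, 67.0 and 60.6 CPM in the controls and 56.5, 50.7 and 39.6 CPM after knockdown (log2 fold change -0.23, standard error 0.23). The other 2 rows took fewer counts in every library. Pcdha9 measured 4.44, 3.36 and 4.15 CPM in the controls and 5.26, 3.43 and 2.61 CPM after knockdown (-0.09, 0.36). Pcdha8 measured 3.41, 4.76 and 3.51 CPM in the controls and 3.52, 2.98 and 2.12 CPM after knockdown (-0.43, 0.35). The groups overlapped for all 3 genes, and knockdown replicate 3 was the lowest library for each. In the rn5 annotation of the count table, the 3 rows start at different positions but all end at position 29924444 of chromosome 18. Reads in the exons that they share cannot be given to 1 isoform, and the setting by which the counting handled them is not given in the sources used here.

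The 30 beta and gamma rows spanned only 2319 to 3376 bases each in rn5, and 19 of the 30 spans were a multiple of 3, as a variable exon without its constant exons or a single coding exon can be. Beta rows lay between positions 29992749 and 30302376 of chromosome 18 and gamma rows between 30502814 and 30606131. Because the spans are alike, levels are given per kilobase of span. This does not correct for reads that fit several similar exons, whose handling is not given. Nor does it correct for gamma transcripts that are longer than their rows, so comparisons between genes and clusters are rough. The median over genes was 2.72 CPM per kilobase in the beta cluster and 6.28 in the gamma cluster. The lowest beta gene was Pcdhb1 (0.0135 CPM per kilobase) and the highest Pcdhb5 (8.19). The lowest gamma gene was Pcdhga9 (1.39) and the highest Pcdhga7 (16.8). All but 1 of these 30 isoforms were countable in the pooled cells of a culture, which does not show how many of them any 1 neuron used.

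Among beta genes, the highest level in CPM was that of Pcdhb5, with 21.9, 18.9 and 24.5 CPM in the controls and 20.9, 24.5 and 16.2 CPM after knockdown (log2 fold change -0.09, standard error 0.24). Pcdhb19 followed, with 17.2, 13.7 and 15.6 CPM in the controls and 12.6, 16.0 and 10.9 CPM after knockdown (-0.24, 0.25). The groups overlapped for both genes. Pcdhb9 measured 14.7, 11.98 and 13.7 CPM in the controls and 12.4, 14.97 and 9.87 CPM after knockdown (-0.12, 0.26). Pcdhb22 measured 15.5, 11.98 and 13.2 CPM in the controls and 13.0, 9.87 and 10.4 CPM after knockdown (-0.29, 0.25). For Pcdhb22 only knockdown replicate 1 reached into the control range, which was also so for Pcdhb17, the beta gene with the lowest fold change. Pcdhb17 measured 7.48, 4.76 and 6.16 CPM in the controls and 4.99, 3.29 and 4.205 CPM after knockdown (-0.57, 0.33, adjusted p = 0.565 by edgeR). Pcdhb21 measured 3.53, 2.71 and 2.69 CPM in the controls and 2.93, 2.04 and 1.59 CPM after knockdown (-0.45, 0.37). Pcdhb2 measured 5.43, 5.91 and 8.10 CPM in the controls and 5.64, 5.23 and 3.41 CPM after knockdown (-0.45, 0.33). For both, only knockdown replicate 1 lay within the range of the controls.

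The highest fold changes in the beta cluster were near 0. Pcdhb8 measured 8.34, 4.43 and 6.24 CPM in the controls and 8.94, 8.21 and 3.59 CPM after knockdown (log2 fold change 0.12, standard error 0.41). Pcdhb10 measured 7.40, 5.33 and 7.98 CPM in the controls and 6.40, 9.63 and 5.93 CPM after knockdown (0.08, 0.32). Pcdhb11 measured 7.48, 5.58 and 8.61 CPM in the controls and 5.69, 7.90 and 6.86 CPM after knockdown (-0.09, 0.30). All 3 changed sign when single libraries were left out. The other 7 beta genes tested had fold changes from -0.44 to -0.13 and means from 4.76 to 11.8 CPM.

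Among the 12 gamma rows with a symbol, Pcdhga7 had the highest level. It measured 59.0, 38.5 and 43.1 CPM in the controls and 54.5, 38.6 and 32.0 CPM after knockdown (log2 fold change -0.17, standard error 0.27), which was 17.4% to 21.4% of the counts of these 12 rows in a library. The gamma-A12 row, named by description and with a longer span of 52514 bases, is in neither this share nor this order. Pcdhga2 measured 44.3, 35.8 and 43.4 CPM in the controls and 45.1, 38.7 and 30.8 CPM after knockdown (-0.11, 0.22). Both genes overlapped between the groups. Pcdhga3 measured 35.8, 25.3 and 31.8 CPM in the controls and 44.2, 36.2 and 20.9 CPM after knockdown (0.12, 0.30). Pcdhgb8 measured 28.9, 24.9 and 21.9 CPM in the controls and 24.0, 23.4 and 18.7 CPM after knockdown (-0.20, 0.23). Of these 4 genes only Pcdhga3 had a higher fitted level in knockdown cultures, and it too was lowest in knockdown replicate 3. Pcdhga4 measured 13.4, 12.3 and 12.9 CPM in the controls and 16.5, 15.1 and 10.7 CPM after knockdown (0.13, 0.25), the highest fold change of the 32 clustered genes with a symbol. Pcdhga5 measured 13.2, 8.04 and 10.3 CPM in the controls and 14.7, 11.3 and 8.10 CPM after knockdown (0.11, 0.31). In these 2 genes, too, knockdown replicates 1 and 2 were above the control mean and replicate 3 was below it. Pcdhga10 and Pcdhga11 had fold changes of -0.07 and -0.02.

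Pcdhga8 and Pcdhga9 were steady among the controls. Pcdhga8 measured 13.8, 13.5 and 14.2 CPM in the controls and 11.6, 13.9 and 9.29 CPM after knockdown (log2 fold change -0.26, standard error 0.25). Pcdhga9 measured 3.86, 4.27 and 3.83 CPM in the controls and 3.63, 3.53 and 2.61 CPM after knockdown (-0.29, 0.32, adjusted p = 0.766 by edgeR). It was the only clustered gene whose groups did not overlap, and the gap between the nearest libraries was small against the spread within the knockdown group.

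Of the 39 genes tested, Pcdhga1 varied most between cultures, and not by group. It measured 11.1, 2.297 and 2.65 CPM in the controls and 8.18, 1.14 and 1.28 CPM after knockdown, so replicate 1 was high in both groups. The highest library was 9.71 times the lowest, while this ratio ran from 1.37 (Pcdhb15) to 3.85 (Pcdh11x) for the other 38 genes tested. Of the counts of the 12 gamma rows, without gamma-A12, Pcdhga1 took 4.03% in control replicate 1 (95% Wilson interval 3.58% to 4.53%, which covers counting error only) and 2.93% in knockdown replicate 1 (2.51% to 3.43%), against 0.514% to 1.18% in the other 4 libraries. Pcdhgb7 had a milder form of the same pattern, at 26.9, 14.1 and 14.7 CPM in the controls and 27.9, 15.1 and 9.96 CPM after knockdown, with 9.76% and 10.004% of the counts of the 12 rows in both replicates 1 and 6.20% to 7.03% in the others. The log2 fold change of Pcdhga1 was -0.62 (standard error 0.87) and turned to 0.50 without control replicate 1. That of Pcdhgb7 was -0.08 (0.42). Control replicate 1 and knockdown replicate 1 also deviated together over all genes tested, with a correlation of 0.61 over genes of their deviations from the group means. The headings of the deposited columns carry the same number for same-numbered replicates of both groups. Whether such libraries came from the same preparation of neurons is not stated.

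The non-clustered protocadherins lie on several chromosomes, and levels of their 7 tested members, given in CPM with no correction for length, are not compared between genes. Pcdh1, an adhesion protein of epithelia and brain, took the most counts. It measured 147, 170 and 149 CPM in the controls and 192, 170 and 126 CPM after knockdown (log2 fold change 0.06, standard error 0.21, 95% interval -0.42 to 0.55). Pcdh19, whose human homologue is mutated in an X-linked epilepsy, measured 46.1, 74.6 and 65.4 CPM in the controls and 79.8, 83.7 and 33.1 CPM after knockdown (0.08, 0.36). Both genes had their lowest level in knockdown replicate 3 and their highest in another knockdown library.

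Pcdh17, which recruits the WAVE actin regulators to contacts between axons in mouse, had the lowest fold change of the 7 non-clustered genes with a symbol. It measured 65.6, 76.9 and 69.2 CPM in the controls and 61.2, 48.1 and 49.6 CPM after knockdown. All knockdown libraries were below all control libraries. The log2 fold change was -0.41 (standard error 0.19, 95% interval -0.85 to 0.02), which missed the threshold by edgeR (adjusted p = 0.482) and DESeq2 (adjusted p = 0.550). It stayed between -0.51 and -0.32 when each library was left out in turn. Knockdown replicate 3 was not the lowest library for this gene, unlike for most protocadherins.

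The 4 remaining non-clustered genes overlapped between the groups. Pcdh9, which is highly expressed in brain, measured 39.9, 50.7 and 29.2 CPM in the controls and 33.8, 34.2 and 35.4 CPM after knockdown (log2 fold change -0.21, standard error 0.24). Pcdh18, which binds the reelin adaptor Dab1 in mouse, measured 35.4, 21.7 and 23.6 CPM in the controls and 25.5, 28.6 and 15.3 CPM after knockdown (-0.22, 0.31). The X-linked Pcdh11x measured 15.6, 38.2 and 16.0 CPM in the controls and 9.92, 26.5 and 19.5 CPM after knockdown (-0.31, 0.45). It was highest in replicate 2 of both groups, and its fold change turned to 0.26 without control replicate 2. Pcdh20 measured 10.7, 11.3 and 19.7 CPM in the controls and 7.64, 14.5 and 9.83 CPM after knockdown (-0.38, 0.35). Without control replicate 2, 3 of 7 non-clustered genes were below 0 and their median was 0.08.

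**Figure D4:**
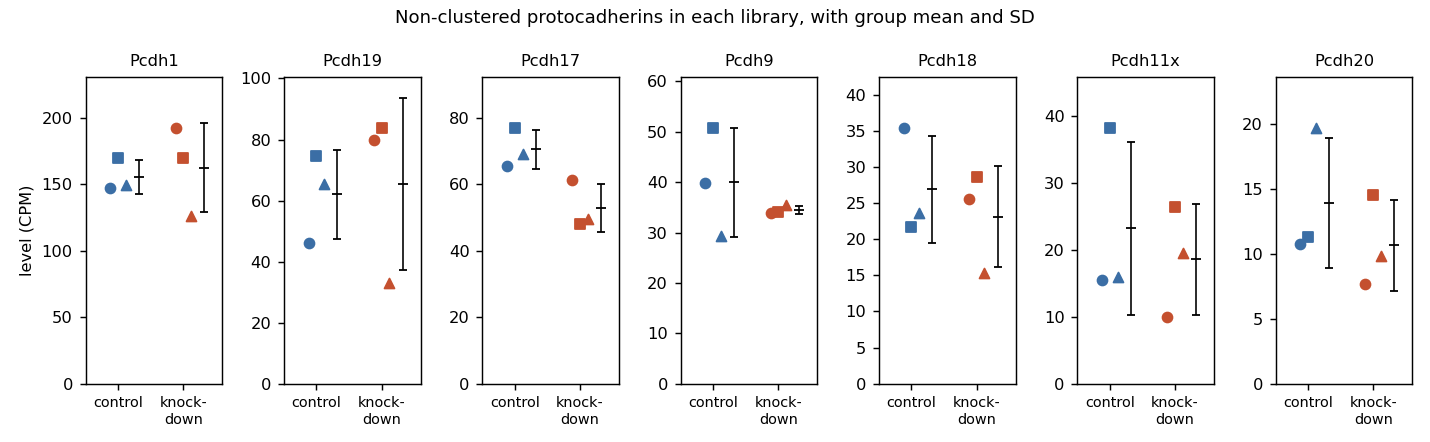
Level (CPM) of the 7 non-clustered protocadherins tested in each library, with the group mean and SD (n = 3 each) and an axis from 0 for each gene. The groups overlap for every gene but Pcdh17, whose 3 knockdown libraries lie at 48.1 to 61.2 CPM and whose control libraries lie at 65.6 to 76.9 CPM.

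A further 11 rows of the table are protocadherins by their description or RefSeq name but carry no Pcdh symbol, and were not counted above. They include alpha isoforms 1 to 7, gamma-A12, and Pcdh7, Pcdh8 and Pcdh15. Pcdh7, a non-clustered protocadherin, measured 41.4, 51.6 and 46.5 CPM in the controls and 20.8, 22.2 and 35.4 CPM after knockdown. The groups did not overlap, and the log2 fold change of -0.83 (standard error 0.26) missed the threshold by edgeR (adjusted p = 0.376) and DESeq2 (adjusted p = 0.190). Pcdh8, also called arcadlin, is an activity-induced protein of hippocampal synapses in rat. It measured 141, 136 and 165 CPM in the controls and 192, 227 and 125 CPM after knockdown, and the groups overlapped. Alpha isoforms 2, 3 and 4 had means of 15.1, 20.3 and 16.2 CPM over the 6 libraries, and the gamma-A12 row measured 272, 218 and 232 CPM in the controls and 310, 257 and 248 CPM after knockdown. The 7 alpha rows had log2 fold changes between -0.40 and 0.02, gamma-A12 of 0.18, and Pcdh15, a protocadherin of hair cells and photoreceptors, of -1.53 with libraries between 2.49 and 40.1 CPM. The median log2 fold change was -0.18 over clustered and -0.27 over non-clustered genes with these rows added.

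No regulator of promoter choice that was tested was called different between the groups. Of 20 listed symbols for CTCF, cohesin, DNA methylation and chromatin of the clusters, 16 were tested. Smc1a, Setdb1, Znf143 and Wapl were not found by name, but Wapl was tested under its other name, Wapal. The fitted fold change of the genes tested was above 0 for 8 and below 0 for 8 (median -0.01, against -0.02 over all genes). Of them, 0 were called by edgeR (0% of all genes) or by DESeq2 (1.36%), and 0 had an unadjusted edgeR p under 0.05 (10.8%). Ctcf, which loops the promoters to their enhancers, averaged 97.9 ± 2.59 CPM in the controls and 92.2 ± 16.9 CPM after knockdown (SD, n = 3 each). The smallest p of this list belonged to Dnmt3a, a DNA methyltransferase, which averaged 94.9 ± 6.77 CPM in the controls and 72.8 ± 9.39 CPM after knockdown (log2 fold change -0.38, adjusted p = 0.497 by edgeR). Stag2, a cohesin subunit, had a log2 fold change of -0.98 with libraries from 9.80 to 93.8 CPM. Dnmt3b, which methylates clustered promoters in mouse, and Tet3, which oxidises methylated DNA, had log2 fold changes of 0.39 and 0.18.

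Of 28 listed partners and processing enzymes of protocadherin proteins, 26 were tested. Their fitted fold change was above 0 for 9 and below 0 for 17 (median -0.19, against -0.02 over all genes), and 6 of 26 had an unadjusted p under 0.05, against 10.8% of all genes. None was called by edgeR, and 2 of 26 fell by DESeq2, which called 1.36% of all genes in either direction. The list was chosen with earlier results of these data known, so these counts cannot show an excess among partners. Abi2, a subunit of the WAVE complex that binds the tails of several protocadherins, measured 329, 346 and 376 CPM in the controls and 147, 123 and 225 CPM after knockdown (log2 fold change -1.09, adjusted p = 0.319 by edgeR and 0.0296 by DESeq2). Nlgn1, a postsynaptic neuroligin that gamma protocadherins bind in mouse, measured 21.8, 31.9 and 26.9 CPM in the controls and 10.9, 7.17 and 15.8 CPM after knockdown (-1.25, 0.342 by edgeR and 0.0392 by DESeq2). All knockdown libraries were below all control libraries for both genes. Both calls were lost when any 1 library other than knockdown replicate 3 was left out, with DESeq2 adjusted p from 0.0564 to 0.346 for Abi2 and from 0.0723 to 0.348 for Nlgn1. Without knockdown replicate 3 they held (8.12e-06 and 0.000541). Ptk2b, a kinase that protocadherin tails inhibit, and Ret, a receptor kinase bound by alpha and gamma protocadherins, had log2 fold changes of -1.11 and -1.75 and were not called by either tool.

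Of 18 other large cadherins, 13 were tested, with 8 above 0 and 5 below 0 (median 0.06). By edgeR and DESeq2 0 were called (0% and 1.36% of all genes), and 0 had an unadjusted edgeR p under 0.05 (10.8%). Those with the smallest p were Cdhr1, a photoreceptor cadherin (log2 fold change -0.55), Celsr3 and Celsr2, cadherins of planar polarity and axon guidance (0.44 and 0.30), and Fat4 (-0.36). Among the marker lists, DESeq2 made calls in 2 and edgeR in 0. Interferon-induced genes summed to 50.7, 56.4 and 23.2 CPM in the controls and to 704, 156 and 791 CPM after knockdown, and 7 of 9 rose by DESeq2 (1.36% of all genes called in either direction). Microglia markers summed to 62.6, 9.76 and 4.50 CPM in the controls and to 4.88, 0.381 and 1.90 CPM after knockdown. Of the 9 in the table, not all of which had a DESeq2 adjusted p, 2 fell by DESeq2, against the same 1.36%. Fibroblast and meningeal markers summed to 68.2, 83.7 and 68.4 CPM in the controls and to 17.6, 12.3 and 55.4 CPM after knockdown, with 0 of 5 called. Astrocyte markers were lower on average in knockdown cultures for 6 of 6 genes, with 0 called. Sums of endothelial and mural markers (8.11 to 50.3 CPM), hippocampal principal neuron markers (668 to 930 CPM) and interneuron markers (891 to 1387 CPM) overlapped between the groups. No marker of these lists that was in the table was at 0 in every library. The marker lists, too, were chosen with earlier results of these data known. The part of these markers in the protocadherin levels was not tested.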

How the data were processed

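RNA-seq reads (unstranded kit, single reads) were processed by the authors. The submitters' processing notes name CASAVA 1.8.2, FastQC 0.10.0, STAR 2.3.0, SAMtools 1.2, HTSeq 0.6, DESeq2 1.8.1 and the build rn5. The deposited values are raw read counts per gene, 1 column per culture. Counting options and the annotation release are not given in the sources used here. Of 26405 genes, 6675 had no counts, 18310 were named by symbol, 475 by description and 1376 by RefSeq gene identifier, and 6244 had no name. The deposited fold changes and p-values of the authors' own comparison were not used, and 0 further columns of single samples were left out.

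Counts were scaled by TMM and given as CPM, counts scaled to a common library total. Knockdown and control (3 cultures each) were compared in R 4.3.3 by edgeR 4.0.16 (quasi-likelihood test after its expression filter, p adjusted by Benjamini and Hochberg's method over every gene in the fit, called below 0.05), and with DESeq2 1.42.0 and limma 3.58.1 (voom) as alternatives. Standard errors were computed from the edgeR fit, as the absolute log2 fold change over the square root of its F statistic. Intervals were built from these standard errors with a t quantile. Fits were tested on simulated data. A share of counts has a Wilson interval, and a count of 0 was taken to allow up to 3 counts. Both cover counting error only.

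Values in every library are given for each non-clustered gene tested and, in each cluster, for the 4 genes with the highest mean CPM and the 3 with the highest and the 3 with the lowest fold change. Pcdhgb7, Pcdh7, Pcdh8 and the motif were chosen after their values were seen. From each pathway list, up to 4 genes with the smallest p are given, and Ctcf in addition. The members and lists were chosen with earlier results of these data known. Promoter windows are from RefSeq (GRCr8), searched on both strands.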

Additional observations from a re-analysis of the deposited data

How the results depend on the processing

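Among protocadherins with a symbol, 0 were called under every alternative. These were DESeq2, limma-voom, RLE size factors, upper-quartile factors, 3 other filters on low counts, the replicate block and leaving out each library. Libraries were left out by edgeR or, chosen after seeing the data, by DESeq2. Over all genes, edgeR called 0, DESeq2 196 and edgeR without a filter 8. Without single libraries edgeR called 0 to 1 gene (1 without knockdown replicate 2), and DESeq2 called 144, 296 and 43 without control replicates 1 to 3 and 104, 123 and 742 without knockdown replicates 1 to 3. Magi2 itself was not called by edgeR (adjusted p = 0.228) but was by DESeq2 (0.00121). The median over non-clustered genes ran from -0.32 to 0.083 without single libraries, and the latter was without control replicate 2. Pcdhga11 turned to 0.00064 without a filter. Same-numbered libraries of the groups had correlations of 0.61, 0.10 and -0.09 of their deviations from the group means. As not all were above 0.1, the main fit did not take the numbers as pairs. With 3 libraries per group these correlations cannot exclude pairing, and the column headings share their numbers between the groups. With the replicate block, 0 genes were called and Pcdh19 turned to -0.0026. At an unadjusted p under 0.05, the replicate block, upper-quartile factors and leaving out knockdown replicate 1 each found 1 protocadherin with a symbol. The other settings found 0.

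Leaving out each library in turn changed the sign of 20 of 39 fitted fold changes. Their log2 fold changes then ran as follows: Pcdha9 from -0.38 to 0.12, Pcdhb4 from -0.40 to 0.048, Pcdhb5 from -0.20 to 0.060, Pcdhb8 from -0.085 to 0.43, Pcdhb9 from -0.25 to 0.022, Pcdhb10 from -0.14 to 0.22, Pcdhb11 from -0.22 to 0.086, Pcdhga1 from -2.12 to 0.50, Pcdhga2 from -0.22 to 0.027, Pcdhga3 from -0.095 to 0.38, Pcdhga5 from -0.095 to 0.31, Pcdhga7 from -0.38 to 0.031, Pcdhga10 from -0.22 to 0.15, Pcdhgb7 from -0.54 to 0.29, Pcdhga11 from -0.15 to 0.15, Pcdh1 from -0.049 to 0.22, Pcdh9 from -0.37 to 0.013, Pcdh11x from -0.62 to 0.26, Pcdh19 from -0.10 to 0.40 and Pcdh18 from -0.37 to 0.028. The cause was not tested. For 12 of 39 protocadherins the interval did not exclude a 2-fold change, and an exact permutation test of 3 against 3 cannot go below 0.1.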
